A study of Homo sapiens with 24 samples.

Results

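Chromatin accessibility was measured around MYC and CCND1 in T47D, an established human cell line from a luminal, estrogen receptor positive breast cancer. The loci were taken as all deposited peaks whose midpoint lay within 200 kb of the gene's interval on the hg38 genome. By that rule 131 of 189403 peaks were members, 73 at MYC on chromosome 8 and 58 at CCND1 on chromosome 11. The assay was ATAC-seq, in which a transposase cuts accessible DNA and adds adapters to it, so that the read count of a peak reflects how accessible it is.

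The study has 24 libraries in 6 groups of 4. Cells kept for 3 days in phenol red free medium with charcoal-stripped serum, called starved here, then received 1 nM beta estradiol for 1 hour. Cells kept for 1 day in complete medium received 100 nM fulvestrant, 100 nM raloxifene or 100 nM tamoxifen for 1 hour. The vehicle, 0.1% DMSO for 1 hour, was given in both media. Seeding density and days in medium differed between complete and starved cells together with the serum, and their parts cannot be told apart. The labels do not say whether replicates came from separate cultures. The p-values therefore cover only the spread among these libraries, which may be technical.

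MYC encodes a transcription factor that drives genes of growth and ribosome production. CCND1 encodes cyclin D1, which binds the kinases CDK4 and CDK6 and starts the phosphorylation of the RB protein that lets cells enter S phase. Both genes are classic targets of the estrogen receptor in luminal breast cancer cells, and both are transcribed toward higher coordinates. Downstream of MYC lies PVT1, a long noncoding RNA gene whose body holds enhancers in several cancers, and distal elements upstream of CCND1 are known as enhancers in breast cancer cells. Fulvestrant is a pure estrogen receptor antagonist that also leads to the receptor's degradation, while raloxifene and tamoxifen are selective receptor modulators.

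Library totals ran from 5448411 to 12140005 counts in 22 of the 24 libraries. Fulvestrant replicate 4 had 434598 counts and 36.1% of all peaks at 0, and starved vehicle replicate 3 had 2422981 counts and 13.0% of peaks at 0. Replicates 3 and 4 of the complete vehicle group are DMSO by title but carry a fulvestrant entry in their treatment label, so results that rest on them are also given without them. Peaks were present at all 9 luminal marker genes looked at, among them ESR1, GATA3 and FOXA1, and of 4 basal or myoepithelial marker genes TP63 had 33 peaks, ACTA2 had 11, and the keratin genes KRT5 and KRT14 had none. The summed level of the basal list ran from 139.8 to 221.5 CPM over all libraries. In replicates 3 and 4 against replicates 1 and 2, 14 of the 69 tested MYC peaks (20.3%) and 1 of the 52 tested CCND1 peaks (1.92%) were lower by edgeR's quasi-likelihood test and none was higher, while 6.2% of all tested peaks differed in either direction. The labels name no batch behind these sets.

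Levels are given as CPM, read counts divided by the TMM-scaled library total of edgeR. The TMM factor was 1.56 for fulvestrant replicate 4 and 0.957 to 1.05 for the other libraries. It lowers the CPM of that replicate relative to plain library totals. Of the members, 121 had enough counts to be tested, 69 at MYC and 52 at CCND1. The remaining 4 MYC peaks averaged 0.254 to 0.741 CPM and the remaining 6 CCND1 peaks 0.311 to 0.800 CPM. A peak is called where the adjusted p of edgeR's quasi-likelihood test, Benjamini-Hochberg over all 156745 tested peaks, is under 0.05. Log2 fold changes, their standard errors (SE) and 95% intervals come from that fit, which weighs libraries by depth. In a bulk library, more cells with an open site and a more open site in each cell cannot be told apart.

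Member peaks were stronger than most. The median level over all libraries was 3.77 CPM at MYC and 2.93 CPM at CCND1, against 2.02 CPM over all peaks. The MYC locus was dense along PVT1 (chr8:127794524-128101256), which 41 of its 73 peaks overlap, while 4 peaks overlap MYC itself (chr8:127735434-127742951). The peak of highest level at this locus, chr8:127870472-127870932, lies inside PVT1, 127.8 kb beyond the end of MYC, and held 11.7% of the summed mean level of the locus. Per length it also came first, with 16.4 CPM per 100 bases, and the next 3 peaks in that order were in PVT1 as well, at 117.1, 124.2 and 58.0 kb. The peak near the start of the MYC body, chr8:127736052-127736345, followed with 11.6 CPM per 100 bases.

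At CCND1 (chr11:69641156-69654474), where 3 peaks overlap the gene, levels per length were highest close to it. The peak chr11:69639013-69639258, 2.0 kb before the gene, came first with 15.2 CPM per 100 bases. It was followed by a peak 0.4 kb past the gene's end (chr11:69654776-69655027) with 13.1, the LTO1 promoter with 12.9 and the peak over the CCND1 start (chr11:69641050-69641259) with 12.6 CPM per 100 bases. A far peak in intergenic DNA, chr11:69515340-69515563, 125.7 kb before the gene, had 10.4 CPM per 100 bases. DNA copy number of these loci in this line was not analysed here and would enter any level set across them.

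The peak with the highest CPM at the CCND1 locus, chr11:69675280-69675599, covers the start of LTO1, a neighbour of CCND1 whose product takes part in ribosome assembly. Its RefSeq promoter window (GRCh38.p14, chr11:69675304-69675603, minus strand, 250 bases before to 50 after the start) shares 296 of its 300 bases with the peak. It is printed because this is the strongest site of the locus and no comparison called a change there. Capitals mark a CCAAT box and a pair of Sp1 boxes (GGGCGG, one of them on the other strand).
LTO1 promoter: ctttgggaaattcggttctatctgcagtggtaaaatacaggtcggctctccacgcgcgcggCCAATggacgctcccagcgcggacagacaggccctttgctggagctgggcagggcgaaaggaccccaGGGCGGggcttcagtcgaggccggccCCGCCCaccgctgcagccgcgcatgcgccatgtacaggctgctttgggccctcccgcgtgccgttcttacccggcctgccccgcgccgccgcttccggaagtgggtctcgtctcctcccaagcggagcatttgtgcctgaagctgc
Among 35116 RefSeq promoters of this length, 45% hold GGGCGG and 34.6% hold CCAAT, on either strand. The letters of a full estrogen response element (in 0.057% of promoters), of its half-site (GGTCA, 37.4%), of an E-box (CACGTG, 7.26%), of an AP-1 site (TGANTCA, 7.71%) and of a forkhead site (TGTTTAC, 3.42%) are not in this window on either strand.

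Few peaks were called with estradiol after 1 hour at either locus. Of the tested MYC peaks 2 of 69 (2.9%) were higher than in starved vehicle cells and none lower, and of the tested CCND1 peaks 1 of 52 (1.92%) was higher and none lower. Among all tested peaks 0.835% were called in this comparison, 0.813% as higher and 0.0223% as lower. The MYC count depended on the fit: 7 were higher with replicate set as a term, 4 within replicates 1 and 2, 2 within replicates 3 and 4, and 4 without both shallow libraries. At CCND1 the same settings gave 1, 2, 1 and 1. Over all tested peaks they gave 1596 of 156745, 907 of 155719, 729 of 160761 and 1255 of 159753 as higher. All 3 called peaks are distal, both MYC ones inside PVT1 and the CCND1 one in the intergenic stretch before the gene. Most tested peaks are distal too, since only 6 at MYC and 4 at CCND1 lie in or within 1 kb of the gene. The median log2 fold change was 0.11 at MYC and 0.049 at CCND1, against -0.0088 over all tested peaks.

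The distal CCND1 peak 125.7 kb before the gene had 16.8, 22.7, 25.0 and 22.1 CPM in the estradiol libraries, against 4.84, 3.73, 6.82 and 6.55 CPM in the starved vehicle libraries. Every estradiol library stood above every starved vehicle library. The log2 fold change was 2.04 (SE 0.217, a 4.10-fold difference, edgeR quasi-likelihood adjusted p = 2.03e-08), and the call was kept in all 22 alternative fits. Within replicates 1 and 2 the mean was 19.7 CPM with estradiol and 4.29 CPM with starved vehicle, and within replicates 3 and 4 it was 23.6 CPM with estradiol and 6.68 CPM with starved vehicle.

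Nearby peaks on the same side had lower levels. The peak chr11:69517697-69517900, 123.4 kb before CCND1, averaged 1.71 ± 0.457 CPM with estradiol and 0.661 ± 0.1501 CPM with starved vehicle (SD, n = 4 each). The groups did not overlap there, yet the log2 difference of 1.44 (SE 0.480) was not called (edgeR adjusted p = 0.252). The peak chr11:69521453-69521847, 119.5 kb before the gene, had overlapping groups and a log2 difference of 0.98 (SE 0.316, edgeR adjusted p = 0.212), also not called.

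The strongest MYC-locus peak, 127.8 kb past the gene in PVT1, had 66.6, 66.9, 84.4 and 72.9 CPM with estradiol, against 33.9, 31.0, 22.5 and 31.4 CPM with starved vehicle. The groups did not overlap, and the lowest vehicle library was the shallow replicate 3. The log2 fold change was 1.24 (SE 0.174, 2.36-fold, edgeR adjusted p = 0.000155), and it was 1.19 (SE 0.158) without both shallow libraries. The call was kept in all 22 alternatives.

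The second called MYC peak, chr8:127800823-127801063, lies 58.0 kb past the gene near the start of PVT1. It had 20.1, 24.2, 26.9 and 25.7 CPM with estradiol, against 13.0, 11.8, 24.5 and 18.8 CPM with starved vehicle. The groups overlapped, since starved vehicle replicate 3 reached into the estradiol range. The log2 fold change was 0.62 (SE 0.140, edgeR adjusted p = 0.00490). The call was lost in 4 of 22 alternatives, without starved vehicle replicate 1 (log2 difference 0.53) or replicate 2 (0.50), without estradiol replicate 3 (0.56), and within replicates 3 and 4 alone (0.40).

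**Figure D1:**
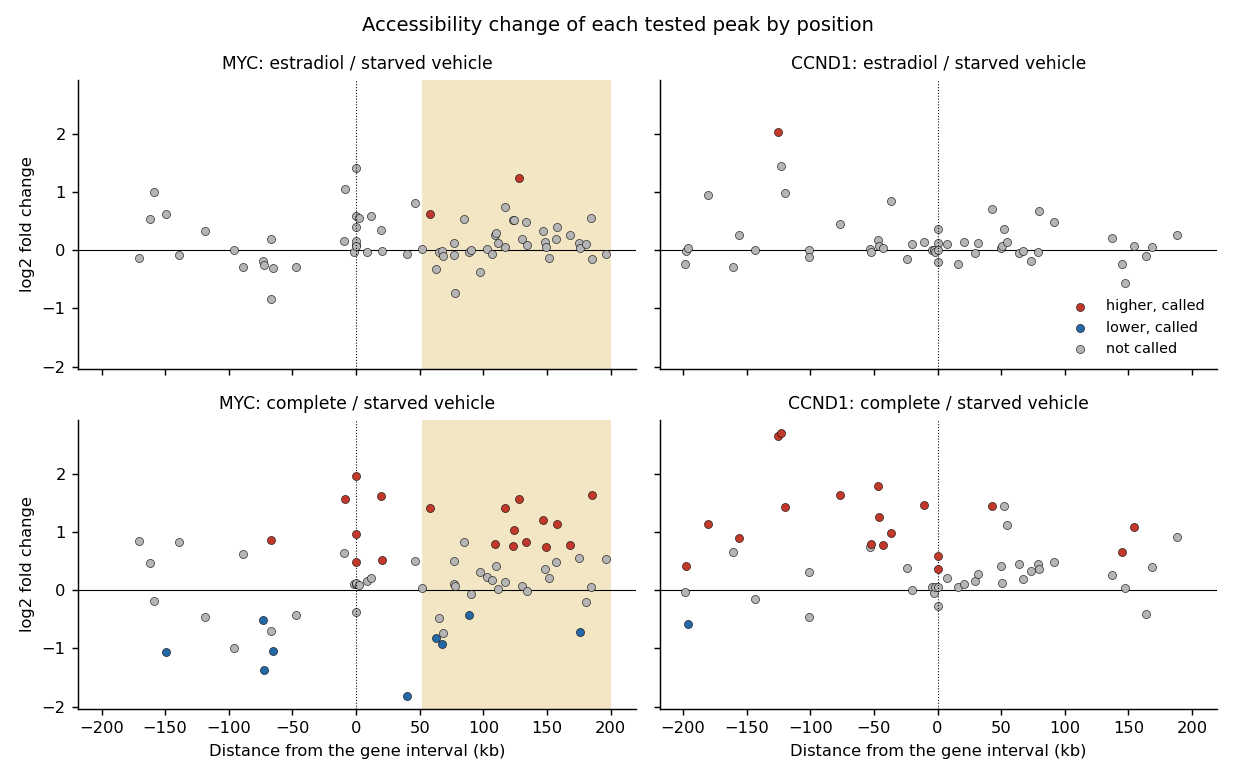
Log2 fold change (vertical axis) of each tested peak against its distance in kb from the gene interval (horizontal axis), for estradiol over starved vehicle (top) and complete over starved vehicle (bottom) at MYC (left) and CCND1 (right). Each point is 1 peak, red where called higher, blue where called lower and grey where not called, and the shaded stretch is PVT1. With estradiol, 2 MYC peaks in PVT1 and 1 peak far before CCND1 are red, while complete medium gives 19 red and 9 blue points at MYC and 18 red and 1 blue at CCND1.

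In the reported fit the genes themselves gave no call with estradiol. None of the 6 tested peaks in or within 1 kb of MYC and none of the 4 at CCND1 passed. These are too few peaks to read a lack of calls from at a background of 0.835%. Over each whole locus 12 of 69 MYC peaks and 6 of 52 CCND1 peaks had an unadjusted p under 0.05 in edgeR's test (17.4% and 11.5%, against 6.0% of all tested peaks), and DESeq2 called 2 and 1. The peak just before MYC, chr8:127735193-127735393, averaged 9.35 ± 2.00 CPM with estradiol and 6.92 ± 1.94 CPM with starved vehicle (SD, n = 4 each). The log2 difference was 0.58 with a 95% interval of 0.18 to 0.99 (edgeR adjusted p = 0.308). The peak near the start of the MYC body averaged 28.5 ± 1.37 CPM with estradiol and 26.7 ± 1.55 CPM with starved vehicle, a log2 difference of 0.092 with an interval of -0.14 to 0.32.

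Further peaks of the MYC body had log2 differences of 0.15 (SE 0.116) at chr8:127737649-127737908, 0.073 (SE 0.261) at chr8:127738268-127738468 and 0.40 (SE 0.208) at chr8:127738617-127738820. A weak peak just past the gene, chr8:127743062-127743312, had 3.25, 3.30, 1.62 and 1.67 CPM with estradiol, against 0.346, 1.12, 3.21 and 0.637 CPM with starved vehicle. Starved vehicle replicate 3 lay within the estradiol range. The log2 difference of 1.41 (SE 0.440) was not called (edgeR adjusted p = 0.167). It was called in 5 of 22 alternatives, among them without that library (log2 1.80, edgeR adjusted p = 0.0311).

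The CCND1 start had 27.1, 26.6, 28.6 and 25.6 CPM with estradiol, against 23.5, 22.1, 24.5 and 28.7 CPM with starved vehicle. The groups overlapped, with a log2 difference of 0.12 and an interval of -0.12 to 0.36. Inside the gene, the log2 difference was -0.20 (SE 0.124) at chr11:69643338-69643580 and 0.36 (SE 0.191) at chr11:69644298-69644572.

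Strong peaks on both sides of CCND1 were also close between these groups. The peak 2.0 kb before the gene had 36.0 ± 1.31 CPM with estradiol and 37.1 ± 2.69 CPM with starved vehicle (SD, n = 4 each), a log2 difference of -0.04 (-0.25 to 0.17). The peak past the gene's end had 27.9 ± 3.91 CPM with estradiol and 27.7 ± 3.06 CPM with starved vehicle. The LTO1 promoter peak had 48.0, 42.6, 41.0 and 44.7 CPM with estradiol, against 40.9, 42.0, 29.3 and 40.5 CPM with starved vehicle, where replicate 3 was the low one. Its log2 difference was 0.14 with an interval of -0.066 to 0.36.

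For scale, the same window was read around 2 other estrogen receptor targets. At GREB1, which encodes a receptor cofactor, 11 of 90 tested peaks were higher with estradiol (12.2%). At PGR, the progesterone receptor gene, 6 of 82 were (7.32%), against 0.813% of all tested peaks. Between the media, 45.6% of tested peaks were called at GREB1, 37.8% at PGR, 40.6% at MYC and 36.5% at CCND1, against 17.8% of all tested peaks. The difference between these loci and the MYC and CCND1 loci was not tested. The MYC count with estradiol depended on the fit, as given above, and GREB1 and PGR were not counted in the other fits.

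Many more peaks differed between the media. Against starved vehicle cells, complete vehicle cells had 19 of 69 tested MYC peaks higher (27.5%) and 9 lower (13%), and 18 of 52 tested CCND1 peaks higher (34.6%) and 1 lower (1.92%). Among all tested peaks 17.8% were called in this comparison, 7.93% as higher and 9.91% as lower. The median log2 fold change was 0.21 at MYC and 0.40 at CCND1, against 0.021 over all tested peaks. Without the 2 complete vehicle libraries of conflicting label, MYC had 15 higher and 4 lower peaks and CCND1 14 higher and 0 lower. Over all 171350 peaks tested in that setting, 8570 were higher and 9320 lower. The summed level of the blood marker genes PTPRC, CD3E and CD14 (3 of 3 with peaks) ran from 55.4 to 60.4 CPM in complete vehicle libraries and from 70.2 to 94.0 CPM in starved vehicle libraries. The luminal list went the other way, from 1105 to 1168 CPM in complete vehicle and from 939 to 994 CPM in starved vehicle libraries. The basal, fibroblast and endothelial lists overlapped between these groups. The part of the lists in these results was not tested.

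Called peaks were spread unevenly along both loci. At CCND1, 13 of the 25 tested peaks before the gene were higher in complete medium and 1 lower, against 3 higher and 0 lower of 23 past it. At MYC, 12 of 39 tested peaks in PVT1 were higher and 4 lower, while before the gene 2 of 17 were higher and 4 lower. These shares are descriptions, since no test compared the positions.

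The distal CCND1 peak at 125.7 kb had 37.7, 30.7, 31.1 and 35.0 CPM in complete vehicle libraries, against the 3.73 to 6.82 CPM of starved vehicle libraries. The groups stood apart, with a log2 fold change of 2.66 (SE 0.204, 6.30-fold, edgeR adjusted p = 6.74e-13). The peak at 123.4 kb averaged 4.22 ± 1.33 CPM in complete vehicle and 0.661 ± 0.1501 CPM in starved vehicle cells (SD, n = 4 each), a log2 fold change of 2.70 (SE 0.397). The one at 119.5 kb rose by 1.43 (SE 0.299) on the log2 scale.

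Peaks between these sites and CCND1 rose in complete medium as well. Their log2 fold changes were 1.64 (SE 0.290) at chr11:69564435-69564680, 1.80 (SE 0.383) at chr11:69593937-69594181 and 1.47 (SE 0.296) at chr11:69630125-69630349, which are 76.6, 47.1 and 10.9 kb before the gene. Estradiol against starved vehicle gave log2 differences of 0.46 (SE 0.343), 0.17 (SE 0.490) and 0.14 (SE 0.360) at the same peaks, none called.

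On the other side of CCND1, chr11:69697235-69697495 beside FGF19, a fibroblast growth factor gene, rose by 1.45 (SE 0.272) in complete medium, where the estradiol difference of 0.71 (SE 0.301) was not called. Further out, chr11:69799595-69799811 had 22.8, 14.9, 15.9 and 15.8 CPM in complete vehicle libraries, against 11.3, 12.3, 9.62 and 10.3 CPM in starved vehicle libraries. All complete vehicle values were the higher, with a log2 fold change of 0.66 (SE 0.149). Estradiol libraries had 9.76, 11.5, 7.91 and 8.49 CPM at this peak and overlapped the starved vehicle range.

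At MYC, the PVT1 peak at 127.8 kb had 103, 92.8, 83.1 and 90.2 CPM in complete vehicle libraries, against the 22.5 to 33.9 CPM of starved vehicle libraries. The groups did not overlap, and the log2 fold change was 1.57 (SE 0.172, 2.98-fold, edgeR adjusted p = 6.13e-07). The PVT1 peak at 58.0 kb had 44.4, 44.8, 41.6 and 37.2 CPM in complete vehicle libraries, all above the highest starved vehicle library at 24.5 CPM. Its log2 fold change was 1.41 (SE 0.130, 2.66-fold, edgeR adjusted p = 2.65e-14). Within replicates 1 and 2 it averaged 44.6 CPM in complete and 12.4 CPM in starved vehicle cells, and within replicates 3 and 4 it averaged 39.4 CPM in complete and 21.6 CPM in starved vehicle cells. Without the complete vehicle libraries of conflicting label the log2 fold changes were 1.67 (SE 0.214) at 127.8 kb, 1.51 (SE 0.162) at 58.0 kb and, at the distal CCND1 peak, 2.70 (SE 0.252).

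Other PVT1 peaks rose with them, among them chr8:127867077-127867278 at 124.2 kb (log2 fold change 1.03, SE 0.199), chr8:127889997-127890290 at 147.2 kb (1.21, SE 0.210) and chr8:127928510-127928842 at 185.7 kb (1.63, SE 0.378). Peaks lying side by side could differ. The peaks chr8:127859928-127860134 and chr8:127860154-127860354 are 20 bases apart, and the first rose in complete medium by 1.41 on the log2 scale while the second had a difference of 0.15 and no call. This pair was picked after its values were seen, and the difference between its peaks was not tested. The peaks at 117.1, 124.2 and 127.8 kb were also lower in replicates 3 and 4 than in replicates 1 and 2, by log2 differences of -0.54, -0.37 and -0.21.

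Of the 6 tested peaks in or within 1 kb of MYC, 3 were called higher in complete medium and 0 lower. The peak just before the gene had 13.6, 15.1, 11.01 and 10.1 CPM in complete vehicle libraries, against 4.84, 7.71, 9.22 and 5.92 CPM in starved vehicle libraries. The groups did not overlap, and the log2 fold change was 0.96 (SE 0.194, edgeR adjusted p = 0.000121). The peak near the start of the MYC body had 38.1, 39.5, 35.1 and 37.2 CPM in complete vehicle libraries, against 27.2, 28.6, 25.3 and 25.6 CPM in starved vehicle libraries. Every complete vehicle library was the higher, by a log2 fold change of 0.48 (SE 0.114, adjusted p = 0.00113 by edgeR).

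The weak peak past the gene had 4.22, 3.90, 2.98 and 3.07 CPM in complete vehicle libraries and rose by 1.97 (SE 0.409), and a peak 19.8 kb on, chr8:127762583-127762846, rose by 1.61 (SE 0.354). The 3 other peaks of the gene body, in the order above, had log2 differences of 0.11 (SE 0.119), -0.38 (SE 0.287) and 0.13 (SE 0.221) and no call.

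At CCND1 itself the differences were small. Its start averaged 26.0 ± 4.40 CPM in complete vehicle and 24.7 ± 2.82 CPM in starved vehicle cells (SD, n = 4 each), a log2 difference of 0.054 with an interval of -0.19 to 0.30. The peak 2.0 kb before it had a difference of 0.057 (-0.16 to 0.27), the LTO1 promoter peak one of 0.10 (-0.11 to 0.32) and the first peak inside the gene one of -0.28 (SE 0.127). The second peak inside the gene rose by 0.58 (SE 0.189, edgeR adjusted p = 0.0208), a call lost in 8 of 22 alternatives. The peak past the gene's end averaged 36.2 ± 3.67 CPM in complete vehicle and 27.7 ± 3.06 CPM in starved vehicle cells, with a log2 fold change of 0.36 (SE 0.111, adjusted p = 0.0146 by edgeR) that was lost in 3 of 22 alternatives.

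**Figure D2:**
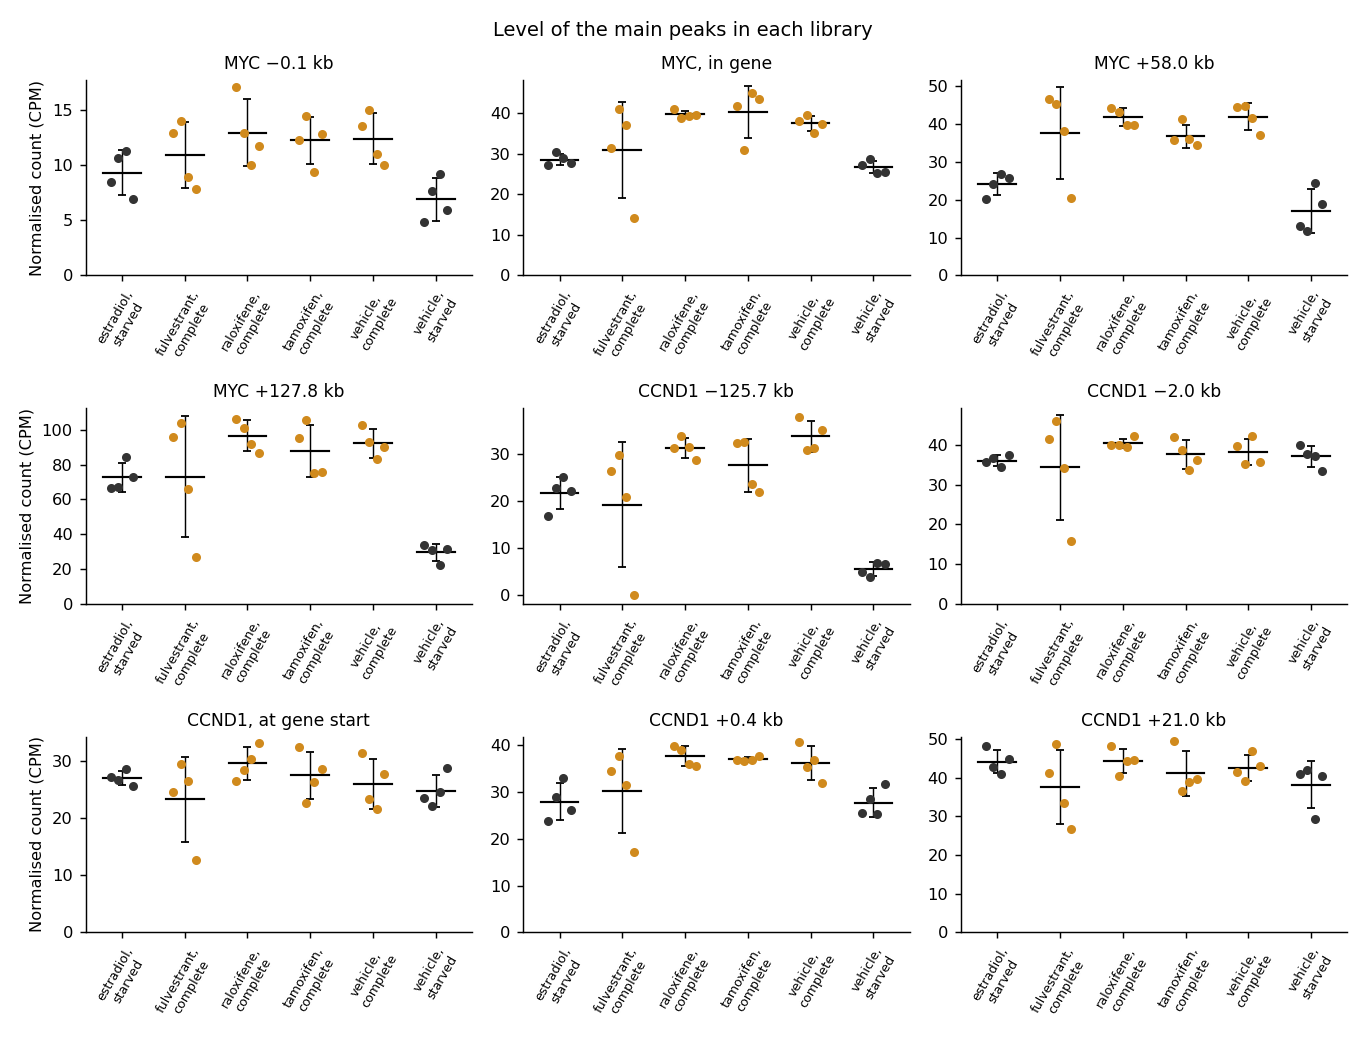
Normalised count in CPM (vertical axis, from 0) of 9 peaks in each of 24 libraries by group (horizontal axis), with dark points for starved and orange points for complete medium, the group mean as a bar and its SD as whiskers (n = 4). The means of the 3 distal peaks are lowest in starved vehicle cells, and the lowest point in each fulvestrant column is replicate 4.

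At the MYC locus 9 peaks were lower in complete medium, with log2 fold changes of -1.81 to -0.43. The one with the smallest p was chr8:127662873-127663078, 72.5 kb before MYC, with 4.00, 2.99, 3.50 and 2.48 CPM in complete vehicle libraries, against 7.72, 8.33, 6.01 and 10.3 CPM in starved vehicle libraries. The groups did not overlap (log2 fold change -1.38, SE 0.223, edgeR adjusted p = 1.54e-06). Estradiol-treated cells had 7.18 ± 1.22 CPM and starved vehicle cells 8.09 ± 1.76 CPM (SD, n = 4 each), a log2 difference of -0.25 (-0.62 to 0.11).

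Estradiol-treated starved cells were also set against complete vehicle cells, a comparison that shares its libraries with those above. At MYC 7 of 69 tested peaks were higher and 11 lower in the estradiol-treated cells, and at CCND1 1 of 52 was higher and 15 lower. Among all tested peaks 16.6% were called, 9.39% as higher and 7.24% as lower. Without the complete vehicle libraries of conflicting label, MYC had 4 higher and 9 lower peaks and CCND1 0 higher and 11 lower. Over all 171350 peaks tested in that setting, 8036 were higher and 6753 lower.

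The 3 peaks called with estradiol were then read against the complete medium level. The CCND1 peak at 125.7 kb averaged 21.6 ± 3.48 CPM with estradiol and 33.6 ± 3.37 CPM in complete vehicle (SD, n = 4 each), a log2 fold change of -0.62 (SE 0.146, adjusted p = 0.00227 by edgeR). That call was lost within replicates 3 and 4 and with DESeq2. The PVT1 peak at 58.0 kb averaged 24.2 ± 2.94 CPM with estradiol and 42.0 ± 3.51 CPM in complete vehicle, a log2 fold change of -0.79 (SE 0.114, adjusted p = 1.75e-07 by edgeR). The PVT1 peak at 127.8 kb averaged 72.7 ± 8.35 CPM with estradiol and 92.3 ± 8.24 CPM in complete vehicle, a log2 difference of -0.34 with an interval of -0.64 to -0.032 that was not called (edgeR adjusted p = 0.130).

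Among other members, the peak near the start of the MYC body was lower in estradiol-treated than in complete vehicle cells (log2 fold change -0.39, SE 0.108), and so was the peak past the CCND1 end (-0.36, SE 0.107). Lower peaks further out included chr8:127928510-127928842 in PVT1 (-1.78, SE 0.365) and chr11:69593937-69594181 before CCND1 (-1.63, SE 0.351). Peaks higher in estradiol-treated cells included chr8:127586082-127586370, 149.2 kb before MYC (1.68, SE 0.313), and the peak at 72.5 kb before MYC (1.13, SE 0.222). At CCND1 the higher one was chr11:69444688-69445009 over the noncoding gene LINC02952 (0.62, SE 0.140).

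None of the 3 antagonists gave a called peak at either locus after 1 hour in complete medium. The background was 0% for fulvestrant, 0.000638% for raloxifene (1 peak of 156745) and 0% for tamoxifen, and DESeq2 called 0 peaks at these loci. At an unadjusted p under 0.05 in edgeR's test stood 5, 1 and 3 of 69 MYC peaks and 4, 1 and 2 of 52 CCND1 peaks for fulvestrant, raloxifene and tamoxifen. Over all tested peaks 3.96%, 3.81% and 4.13% passed that threshold in the same order, against 7.25%, 1.45% and 4.35% at MYC and 7.69%, 1.92% and 3.85% at CCND1. A missed threshold does not show that a compound had no effect, so intervals are given for the main peaks.

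Fulvestrant libraries had 26.2, 29.6, 20.7 and 0 CPM at the CCND1 peak 125.7 kb before the gene, against 37.7, 30.7, 31.1 and 35.0 CPM in complete vehicle libraries. All 4 were below every vehicle library. The zero is the shallow replicate 4, where 0 counts allow up to 4.43 CPM, taking 3 counts as the limit and counting error only. The log2 difference was -0.42 with a 95% interval of -0.74 to -0.11, and it was not called by edgeR's quasi-likelihood test (unadjusted p = 0.00989, adjusted p = 1.00). Without replicate 4 fulvestrant averaged 25.5 ± 4.49 CPM (SD, n = 3), and the log2 difference was -0.37 (SE 0.126). Without the vehicle libraries of conflicting label it was -0.46 (SE 0.199).

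Raloxifene libraries had 31.1, 33.7, 31.4 and 28.7 CPM at this peak, overlapping the vehicle range, with a log2 difference of -0.10 (-0.38 to 0.18). Tamoxifen libraries had 32.3, 32.5, 23.5 and 21.8 CPM, also overlapping it, with a log2 difference of -0.31 (-0.60 to -0.013).

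At the PVT1 peak at 127.8 kb, fulvestrant libraries had 95.7, 104, 66.1 and 26.7 CPM, raloxifene libraries 106, 101, 91.9 and 86.7 CPM and tamoxifen libraries 95.3, 106, 75.3 and 75.9 CPM, against 103, 92.8, 83.1 and 90.2 CPM in complete vehicle libraries. All 3 treated groups overlapped the vehicle range, and fulvestrant replicate 4 stood lowest. Log2 differences from vehicle were -0.091 (-0.41 to 0.23) for fulvestrant, 0.069 (-0.23 to 0.37) for raloxifene and -0.077 (-0.38 to 0.23) for tamoxifen. At the PVT1 peak at 58.0 kb they were 0.032 (-0.20 to 0.26), -0.0059 (-0.22 to 0.21) and -0.20 (-0.42 to 0.018) in the same order of compounds.

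At the genes the same order of compounds was used. At the peak near the start of the MYC body the log2 differences were -0.085 (-0.31 to 0.14), 0.083 (-0.12 to 0.29) and 0.12 (-0.093 to 0.32). Over the CCND1 start they were 0.013 (-0.24 to 0.27), 0.18 (-0.051 to 0.41) and 0.092 (-0.15 to 0.33). None of these was called.

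The peak of smallest p differed between the antagonists. For fulvestrant it was the CCND1 peak just described and, at MYC, chr8:127763489-127763717 (log2 difference -0.42, SE 0.195). For raloxifene these were chr8:127576562-127576762 (-1.31, SE 0.624) and chr11:69817938-69818181 in FGF3 (-0.46, SE 0.224). For tamoxifen they were chr8:127928510-127928842 (-0.91, SE 0.332) and chr11:69480035-69480284 over the noncoding gene LINC02747 (-0.79, SE 0.344).

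**Figure D3:**
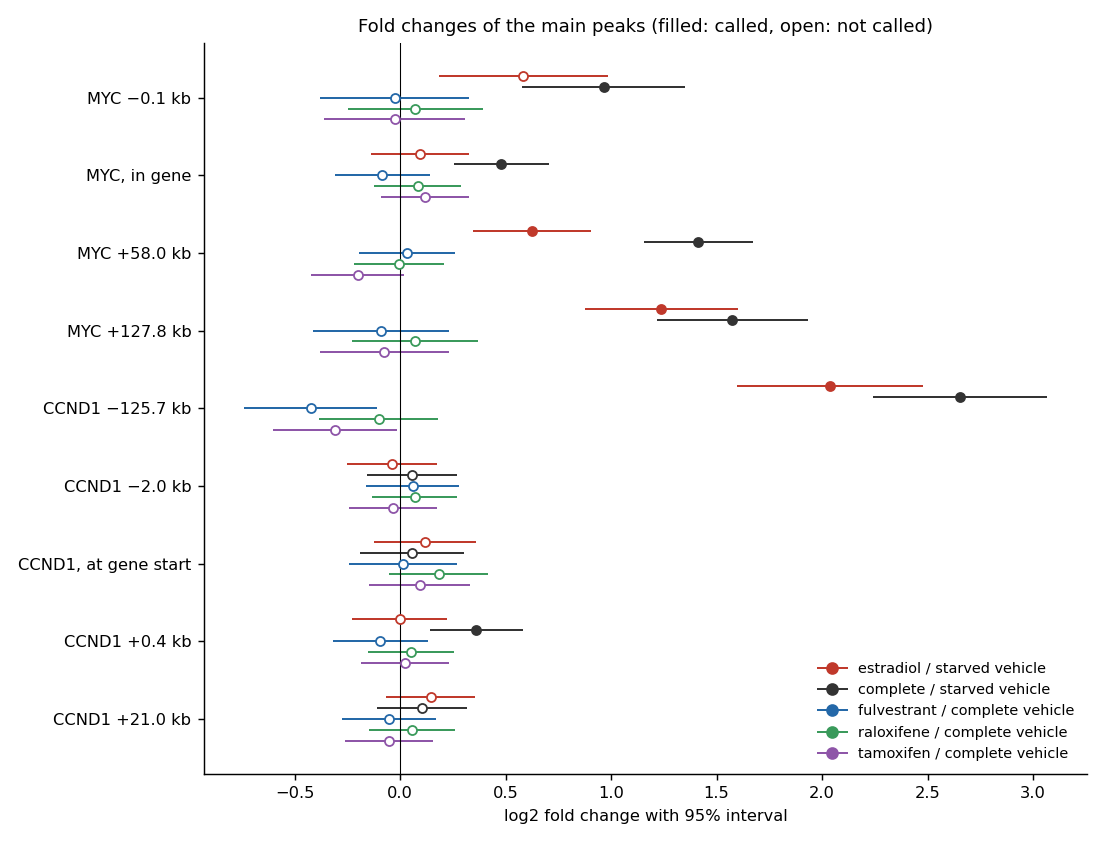
Log2 fold change (horizontal axis) with its 95% interval for 9 peaks (vertical axis, named by distance from the gene) in 5 comparisons, with filled points where the peak was called and open points where it was not. The estradiol and complete medium points lie right of 0 at the 3 distal peaks, up to 2.66 at the CCND1 peak, while all antagonist points are open and lie between -0.42 and 0.18.

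The compounds were also compared with each other at the matched dose of 100 nM and time of 1 hour, in 3 pairs. Raloxifene has a benzothiophene core, tamoxifen is a triphenylethylene and fulvestrant is a steroid derived from estradiol. No member was called in any pair by edgeR or DESeq2, against a background of 0.000638% for fulvestrant against raloxifene and 0% for the other pairs. Unadjusted p-values under 0.05 numbered 2 at MYC and 4 at CCND1 for fulvestrant against raloxifene, 7 and 1 for fulvestrant against tamoxifen, and 1 and 2 for raloxifene against tamoxifen. Over all tested peaks 5.16%, 5.27% and 3.92% had such a p in these pairs. The adjustment covered all tested peaks within each pair, not the pairs together.

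At the distal CCND1 peak, fulvestrant differed from raloxifene by -0.32 (-0.64 to -0.0037) on the log2 scale, fulvestrant from tamoxifen by -0.12 (-0.45 to 0.21) and raloxifene from tamoxifen by 0.20 (-0.091 to 0.50). At the PVT1 peak at 127.8 kb the same pairs differed by -0.16 (-0.48 to 0.16), -0.014 (-0.34 to 0.31) and 0.15 (-0.16 to 0.45). At the peak near the start of the MYC body they differed by -0.17 (-0.39 to 0.056), -0.20 (-0.43 to 0.026) and -0.032 (-0.24 to 0.17). None was called.

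By smallest p in each pair, the MYC locus gave chr8:127831668-127831926 in PVT1 for fulvestrant against tamoxifen, a log2 difference of 0.46 (SE 0.152, edgeR adjusted p = 0.934). The other pairs had theirs at chr8:127860154-127860354, 0.28 (SE 0.132) for fulvestrant against raloxifene and -0.26 (SE 0.125) for raloxifene against tamoxifen. At CCND1 they were 0.77 (SE 0.331) for fulvestrant against raloxifene at chr11:69704690-69704890, -1.27 (SE 0.565) for fulvestrant against tamoxifen at chr11:69791231-69791458 and 0.51 (SE 0.215) for raloxifene against tamoxifen at chr11:69485314-69485727.

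Levels were also summed over all peaks of a locus. The MYC locus held 629 ± 35.4 CPM with estradiol, 621 ± 193 with fulvestrant, 692 ± 68.8 with raloxifene, 681 ± 83.4 with tamoxifen, 704 ± 58.1 in complete vehicle and 533 ± 34.4 in starved vehicle cells (SD, n = 4 each). The CCND1 locus held 435 ± 4.26 CPM with estradiol, 429.7 ± 105 with fulvestrant, 502 ± 10.7 with raloxifene, 484 ± 30.1 with tamoxifen, 502 ± 15.2 in complete vehicle and 408 ± 15.4 in starved vehicle cells. At both loci every estradiol library was above every starved vehicle library. The lowest estradiol and highest starved vehicle sums were 592 and 568 CPM at MYC and 431 and 419 CPM at CCND1. These sums include the peaks already called with estradiol and were not taken without them. Their order is therefore no support apart from those calls. The CCND1 peak at 125.7 kb alone averaged 21.6 CPM with estradiol and 5.48 CPM with starved vehicle. Estradiol libraries stood below every complete vehicle library at CCND1 and overlapped them at MYC. Fulvestrant replicate 4 held 359.6 CPM at MYC and 276 CPM at CCND1, below each of the other 23 libraries. These 2 values carry its TMM factor of 1.56, against 0.957 to 1.05 for the other libraries. Sums on plain library totals were not taken, so this low place is shown for TMM-scaled levels only.

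**Figure D4:**
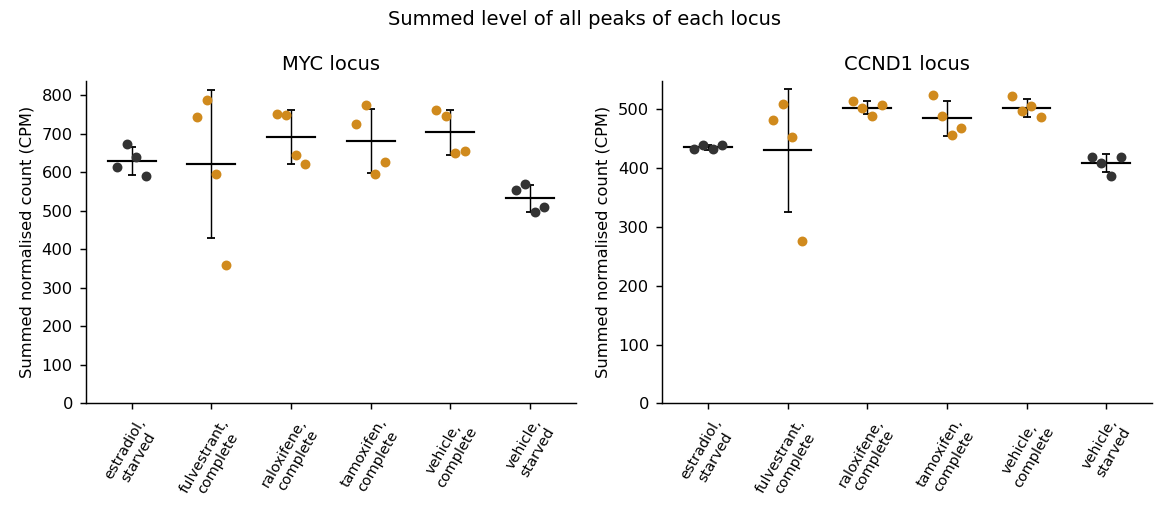
Summed normalised count in CPM (vertical axis, from 0) of all peaks of the MYC locus (left) and the CCND1 locus (right) in each library by group (horizontal axis), with the group mean as a bar and its SD as whiskers (n = 4). Group means are lowest in starved vehicle cells, at 533 CPM for MYC and 408 CPM for CCND1, and the lone low point is fulvestrant replicate 4. The TMM factor of 1.56 for that library lowers its CPM, and its place on plain library totals was not read.

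The order of the groups differed from peak to peak. At the CCND1 peak at 125.7 kb complete vehicle was highest (33.6 CPM), followed by raloxifene (31.2), tamoxifen (27.5), estradiol (21.6), fulvestrant (19.1) and starved vehicle (5.48), and each neighbouring pair in that order overlapped. Without its replicate 4, at 0 counts, fulvestrant averaged 25.5 CPM, above estradiol, and no longer overlapped starved vehicle. Over the CCND1 start the group means ran from 23.2 CPM with fulvestrant to 29.6 CPM with raloxifene, and every neighbouring pair overlapped. Without replicate 4 fulvestrant averaged 26.8 CPM there, above complete vehicle (26.0 CPM) and starved vehicle (24.7 CPM). At the peak near the start of the MYC body the 4 groups in complete medium averaged 30.9 CPM with fulvestrant (36.5 CPM without replicate 4) to 40.2 CPM with tamoxifen, and the starved groups 28.5 CPM with estradiol and 26.7 CPM with vehicle.

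The protein-coding genes whose surroundings were most like each locus were found by correlating log2 summed levels within 200 kb over the 24 libraries. For MYC they were JAK1 (Pearson r = 0.970), PRKCQ (0.964), GPR45 (0.964), PFKFB3 (0.958) and AK4 (0.957), against a median of 0.707 over 18956 genes. For CCND1 they were OR4D1 (0.986), CORO7-PAM16 (0.985), GRK1 (0.984), NKX2-5 (0.984) and TMEM255B (0.984), against a median of 0.816 over 18950 genes. All these values share the libraries, their depth and the low fulvestrant replicate 4. Without that library the medians were 0.289 for MYC and 0.429 for CCND1, and the named genes had r of 0.922 to 0.961 and of 0.955 to 0.968. In that setting PFKFB3 ranked 8 for MYC and TMEM255B ranked 7 for CCND1, outside the first 5. JAK1 and AK4 both lie on chromosome 1, PRKCQ and PFKFB3 on chromosome 10, and GRK1 and TMEM255B on chromosome 13. Whether the windows of such pairs share peaks was not checked, so they may not be separate matches.

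The wider network of cyclin D1 and MYC was read at peaks within 50 kb of 38 genes, 523 of them tested. With estradiol 4 were higher (0.765%) and 0 lower than with starved vehicle, against 0.813% higher and 0.0223% lower over all tested peaks, so the share is near the background and is not a result about the list. The first lay in CDK6, the kinase partner of D-type cyclins (chr7:92607037-92607279), with 6.999 ± 1.79 CPM with estradiol and 2.72 ± 0.999 CPM with starved vehicle and a log2 fold change of 1.45 (SE 0.247). One near MAX, the partner that MYC needs to bind DNA (chr14:65118404-65118648), had 14.1 ± 3.36 CPM with estradiol and 5.64 ± 1.05 CPM with starved vehicle and a log2 fold change of 1.30 (SE 0.180). The others lay near RBL2, an RB family member (chr16:53419149-53419621, 1.53, SE 0.380), and near AMBRA1, a substrate receptor in the turnover of D-type cyclins (chr11:46363608-46363858, 0.69, SE 0.142). All SDs here are over n = 4 each.

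Near the E-type and A-type cyclins 0 of 45 tested peaks and near the CDK inhibitors 0 of 77 were called with estradiol, numbers of peaks too small to read a lack of calls from at a background of 0.835%. The smallest p there fell near CCNA2, cyclin A2 (log2 difference -0.75, SE 0.250), and beside CDKN2D, an inhibitor of CDK4 and CDK6 (0.33, SE 0.129).

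Between media, 40 of these peaks were higher (7.65%) and 31 lower (5.93%) in complete vehicle than in starved vehicle cells. Over all tested peaks 7.93% were higher and 9.91% lower, so the higher share is near the background and the lower share is under it. The counts by role are descriptions, with no test between roles. Among D-type cyclins and their kinases 7 of 63 were higher and 1 lower, and among E-type and A-type cyclins and CDK2 4 of 45 were higher and 5 lower. Among CDK inhibitors 6 of 77 were higher and 5 lower, and among RB and E2F genes 8 of 99 were higher and 7 lower. In the MYC network 8 of 156 were higher and 10 lower, and among turnover genes 7 of 83 were higher and 3 lower.

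The peak of smallest p in each of these roles was as follows. Near E2F2, an activator of S phase genes (chr1:23472972-23473205), complete vehicle cells had 7.61 ± 0.790 CPM and starved vehicle cells 1.60 ± 0.486 CPM (SD, n = 4 each), a log2 fold change of 2.20 (SE 0.275). Log2 fold changes were 1.35 (SE 0.258) near CCNE1, cyclin E1, 0.86 (SE 0.137) near MAX (chr14:64960900-64961232) and 1.096 (SE 0.137) at the AMBRA1 peak. They were -1.23 (SE 0.223) in CDK6 (chr7:92652605-92652844) and -0.86 (SE 0.198) near CDKN2D (chr19:10617780-10618000). The MAX, CDK6 and CDKN2D peaks here are other peaks than those named for estradiol. CDK6 also had peaks called higher in complete medium. No antagonist gave a call on this list, against the background shares given for the antagonists above.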

How the data were processed

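The deposited table gave raw read counts for 189403 peaks in 24 ATAC-seq libraries on hg38. Per the submitters' processing notes, cutadapt 1.8.1, Bowtie2 2.4.4 and SAMtools 1.9 were used; the peak caller, the counter, and the handling of duplicates and of the Tn5 offset were not given in the sources used here, and peak edges and counts may carry those choices. Whether peak starts count from 0 or 1 is not stated, so positions may be off by 1 base. Samples were grouped by title. Counts were fitted with edgeR 4.0.16 (R 4.3.3, limma 3.58.1) in 1 quasi-likelihood fit of all 6 groups, with TMM scaling, a filter on low counts (minimum count 10, minimum total 15), two-sided tests in 9 comparisons, and Benjamini-Hochberg adjustment over the 156745 peaks tested; DESeq2 1.42.0 was an alternative. The script was tested on simulated data. Intervals cover 95%. Distances run from a peak's midpoint to the nearest edge of the RefSeq gene interval (GRCh38.p14). Named peaks are those within 1 kb of a gene, the 3 highest by CPM at each locus, up to 8 called peaks with the smallest p for estradiol and for medium, and for each other comparison the peak with the smallest p and up to 5 called; the pathway list names the peak of smallest p in each role, and likeness names the 5 genes of highest r. The members and lists were chosen with earlier results of these data known. The 36 pairs of replicates had chi-square values of 1.74 to 3.81 for each degree of freedom, above sampling noise, so none was counted as 1 library.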

Additional observations from a re-analysis of the deposited data

Results flagged for a closer look

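Over 66 groups of 4 libraries, 2 had 1 library far from the others by Dixon's test of the gap over the range, and chance alone gives about 1 in 20. At the peak 2.0 kb before CCND1, raloxifene replicate 4 had 42.2 CPM while the other raloxifene libraries had 39.4 to 39.8 CPM. At the LTO1 promoter peak, starved vehicle replicate 3, one of the shallow libraries, had 29.3 CPM while the other starved vehicle libraries had 40.5 to 42.0 CPM.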

How the results depend on the processing

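Replicate numbers were not treated as pairs: deviations of same-numbered libraries correlated at -0.136 to 0.139, and no comparison had every one above 0.1. All 4 numbers correlated best with their own in estradiol-treated against complete vehicle cells (0.0623 to 0.110), 3 of 4 in the 3 comparisons that involve raloxifene, 2 of 4 in estradiol against starved vehicle, complete against starved vehicle and fulvestrant against tamoxifen, and 1 of 4 for fulvestrant and for tamoxifen against vehicle. With the replicate block, estradiol calls numbered 6 at MYC and 1 at CCND1, and counts in the other comparisons moved by less than 1.5 times. Estradiol calls at MYC, 2 as reported, were 7 with replicate set in the model, 4 within replicates 1 and 2, 4 without both shallow libraries, 5 with only the groups compared, 1 within 100 kb and 0 within 50 kb of the gene. Leaving out 1 library gave 1 to 4, with 1 without starved vehicle replicate 1 or 2 or estradiol replicate 3, and 4 without starved vehicle replicate 3. At CCND1, 1 as reported, they were 2 within replicates 1 and 2, 0 within 100 kb, 0 within 50 kb, and 1 to 2 on leaving out 1 library, with 2 without estradiol replicate 3. Over all tested peaks, higher calls ran from 729 of 160761 within replicates 3 and 4 to 1596 of 156745 with replicate set modelled.

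Calls between media at MYC (28) were 9 within replicates 3 and 4, 15 within 100 kb, 7 within 50 kb and 20 to 27 on leaving out 1 library. At CCND1 (19) they were 4, 10 and 8 under the same settings, and 13 to 18. For estradiol-treated against complete vehicle cells, MYC calls (18) were 5, 9 and 4, and 10 to 18, with 10 without complete vehicle replicate 1 and 11 without estradiol replicate 2. CCND1 calls (16) were 6, 8 and 6, and 11 to 14. Fewer libraries or a smaller window were used in each of these. Replicates 1 and 2 hold as many libraries as replicates 3 and 4. Over all tested peaks, media calls within replicates 1 and 2 were 8746 higher and 11191 lower of 155719. Within replicates 3 and 4 they were 4293 higher and 6270 lower of 160761. For estradiol-treated against complete vehicle cells the same settings gave 10117 and 6938, then 6624 and 4016. The cause of the lower counts within replicates 3 and 4 was not tested. Antagonist calls at both loci were 0 in all 24 alternatives of each comparison. Of 50 called values of named peaks, 17 were never lost and 0 changed sign. Of 42 uncalled ones, 4 were called in some alternative.

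Log2 differences of 12 uncalled values changed sign; the cause was not tested. In estradiol against starved vehicle, chr11:69593937-69594181 was at -0.11 within replicates 3 and 4 and at -0.057 to 0.28 on leaving out 1 library, and chr11:69630125-69630349 at -0.18 to 0.50 on leaving out 1 library. The peak before CCND1 was at 0.061 within replicates 3 and 4 and at -0.10 to 0.011 on leaving out 1 library, and the CCND1 start at -0.012 within replicates 3 and 4. The peak past its end was at 0.0037 with no low-count filter, 0.0022 above the median abundance, 0.0054 without the vehicle libraries of conflicting label, 0.0015 with only the groups compared and -0.10 to 0.087 on leaving out 1 library. At chr8:127738268-127738468 the values were -0.012 with the replicate block, -0.19 within replicates 1 and 2 and -0.061 to 0.19 on leaving out 1 library. Between media, the peak before CCND1 was at -0.044 within replicates 1 and 2 and at -0.0063 to 0.11 on leaving out 1 library, and the CCND1 start at -0.21 within replicates 3 and 4 and at -0.076 to 0.17. The LTO1 promoter was at -0.036 within replicates 1 and 2, and chr8:127738617-127738820 at -0.0040 to 0.22 on leaving out 1 library. Within replicates 3 and 4, fulvestrant against tamoxifen was 0.14 at chr11:69791231-69791458 and fulvestrant against raloxifene -0.054 at chr8:127860154-127860354. Fulvestrant replicate 4 limits what its group can show, and peaks near 1 CPM rest on few counts.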
